A study of Mus musculus with 6 samples.

Results

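The 36 genes described here encode the proteins that copy DNA and those that move a cell from G1 into S phase. They were chosen by name, as members of this pathway, and matched to the symbols of the deposited table. All 36 were found, each with a single Ensembl ID, among 55536 genes of the count table, and all 36 were among the 17423 genes with enough counts to be tested. RNA was sequenced from 6 samples of liver tumours in male C3H mice, aged 6 to 8 weeks. These tumours grew after 1000000 HCA-1 cells were placed under the liver capsule. HCA-1 is a mouse hepatocellular carcinoma line. The labels call 3 samples untreated (Control 3, 4 and 5). Only titles tell the samples of a group apart, and each n given here counts libraries. The 3 others (TSDP 1, 2 and 5) came from mice given nanoparticles loaded with DNIC, a nitric oxide donor, and sorafenib, a kinase inhibitor, by vein, 6 times from day 10 to day 23. Tissue was taken on day 24. Whether the untreated mice received an empty particle is not stated, so the particle, the nitric oxide donor and sorafenib cannot be told apart. The host liver is intact, and a tumour piece can hold liver and immune cells of the host.

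Before S phase, the origin recognition complex, Cdc6 and Cdt1 load the ring-shaped MCM2-7 helicase onto DNA, a step called licensing. Cyclin E with its kinase, together with E2F transcription factors, then starts S phase: Mcm10, Cdc45 and the GINS complex switch the helicase on, and DNA polymerases held by the sliding clamp PCNA copy both strands. E2F factors drive the transcription of most of these genes, so in a tissue their messages tend to follow the number of cycling cells. In liver, adult hepatocytes are mostly quiescent, while carcinoma cells and activated lymphocytes cycle.

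Total counts lay between 32130808 and 38953397 per library, of which 48395 to 92367 fell on the 36 genes. Levels are given as counts per 1000000 (CPM), scaled by TMM factors, which adjust for composition, and 3 values in a row follow the order Control 3, 4, 5 or TSDP 1, 2, 5. The libraries differed in RNA of hepatocyte genes. Whether this RNA came from host liver or from the carcinoma cells was not tested. A list of 20 hepatocyte genes took 0.0421%, 2.42% and 0.456% of counts (Control) against 3.79%, 6.70% and 2.34% (TSDP). Of the tumour markers, the keratins Krt8 and Krt18 stood at 431 to 725 CPM in every library, with overlap between the groups. Afp, the classic marker of hepatocellular carcinoma, was low, at 3.27, 3.62 and 3.68 CPM (Control) against 9.202, 5.75 and 4.24 CPM (TSDP), and Gpc3 reached at most 4.83 CPM. Afp and Cdh1, the epithelial cadherin of the same list, lay higher in every TSDP library, as did 13% of all genes tested. Cdh1 stood at 28.1, 43.1 and 41.5 CPM (Control) against 62.6, 92.0 and 61.6 CPM (TSDP). The adjusted p by edgeR was 0.353 for Afp and 0.326 for Cdh1. Of the 7 tumour markers tested, 6 had positive log2 fold changes. H19 went the other way, at 2.47, 3.04 and 1.32 CPM (Control) against 0.931, 2.60 and 0.837 CPM (TSDP), with overlap. Epcam overlapped as well, and Igf2 had too few counts to be tested. Haemoglobin and erythroid markers summed to 644 CPM in Control 3 and to at most 52.5 CPM in each other library.

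The replication and G1/S genes were not shown to differ between treated and untreated tumours, and they varied together from library to library within each group. The 36 genes took 0.284%, 0.184% and 0.171% of counts (Control) against 0.211%, 0.132% and 0.206% (TSDP). The group means were 0.213% ± 0.0617 and 0.183% ± 0.0439 (SD, n = 3 each; exact two-sided permutation p = 0.6, where 3 against 3 libraries cannot go below 0.1). In such whole-tissue samples, fewer cycling cells and less message per cell cannot be told apart. By edgeR's quasi-likelihood test, 0 members passed as higher and 0 as lower (adjusted p under 0.05, Benjamini-Hochberg over all genes), and 0 had an unadjusted p under 0.05. Over all 17423 genes tested, 0% were called in either direction and 13.4% had an unadjusted p under 0.05. The log2 fold changes of the members (TSDP over Control) ran from -0.42 to 0.29 with a median of -0.14, beside -0.02 over all genes tested, and 30 of 36 were negative, beside 52.7% of all genes. DESeq2, an alternative test that called 547 genes higher and 73 lower, and limma-voom, which called 0, also called 0 members in each direction.

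The order of the libraries was shared by most members. Control 3 had the highest level for 32 of 36 genes and TSDP 2 the lowest for 27 of 36, whereas over all genes tested Control 3 was highest for 26.5% and TSDP 2 lowest for 27.7%. The 4 members not highest in Control 3 were Mcm10, Fen1, E2f8 and Ccne1, and all 4 were highest in TSDP 1. TSDP 1 and TSDP 5 lay above Control 4 and Control 5: the mean log2 CPM of the 36 genes was 5.61, 5.02 and 4.90 (Control) against 5.26, 4.67 and 5.19 (TSDP). Control 3 also had the least hepatocyte RNA and TSDP 2 the most. TSDP 1 had more hepatocyte RNA than Control 4 or 5 and a higher level of the 36 genes. The 20 hepatocyte markers, of which 0 were at 0 counts in any library, summed to 423 to 23870 CPM in Control and 23740 to 70860 CPM in TSDP. T cell markers, which mark cells that can themselves cycle, summed to 29.8 to 90.5 CPM in Control and 97.1 to 109.6 CPM in TSDP, and those of B and plasma cells to at most 24.3 CPM in Control and at least 57.5 CPM in TSDP. Endothelial markers summed to 157.9 to 236.0 CPM in Control and 238.5 to 376.2 CPM in TSDP, also without overlap. The sums of macrophage, fibroblast and neutrophil markers overlapped between the groups. The part of hepatocytes and of these other cells in the levels of the replication genes was not tested.

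**Figure D1:**
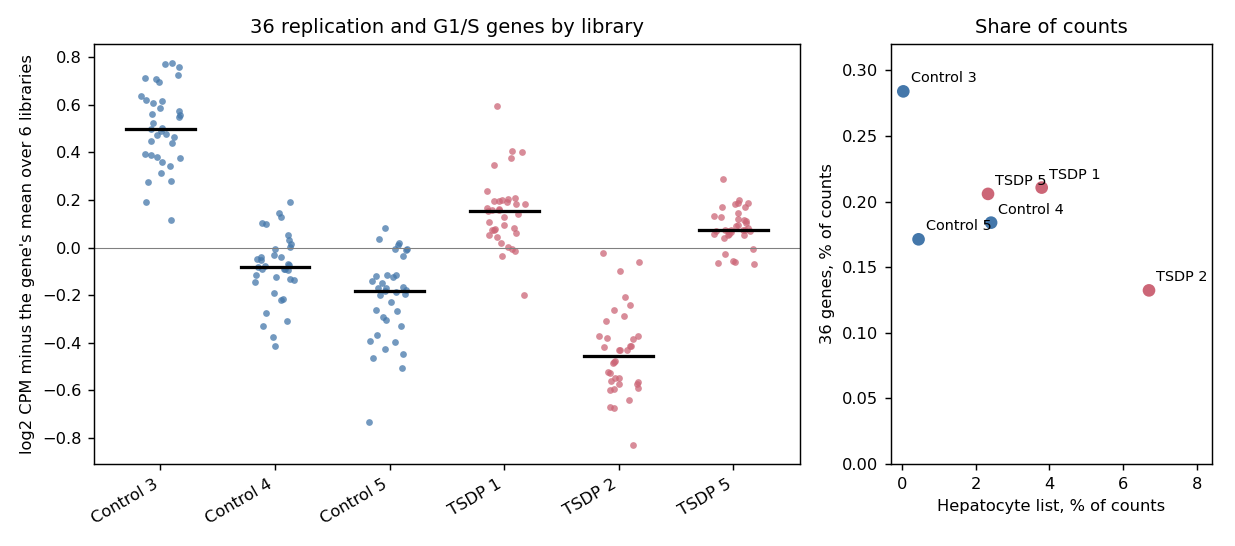
Left, each point is 1 of the 36 genes: its log2 CPM in a library minus its mean over the 6 libraries, with the median as a black line (blue, Control; red, TSDP). Right, the share of all counts taken by the 36 genes against the share taken by 20 hepatocyte genes, 1 point per library; Control 3 has 0.284% and TSDP 2 has 0.132%, the extremes of the 6.

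E2F factors bind close to the starts of their target genes, so the promoters of the members were read for E2F letters. Of the 36 members 30 had at least 1 promoter window in the RefSeq table (GRCm38.p6, 250 bases before to 50 after a start; 36 windows). Mcm4, Gins1, Gins2, Pole, Ccne2 and Ccna2 are named only. The E2F letters searched were TTTCCCGC, TTTGGCGC, TTTCGCGC and TTTGCCGC, on both strands, and matches could overlap. They were found in 14 of 36 member windows (38.9%), in 27.5% of the windows of 34 other replication genes, in 5% of those of 20 mitosis genes and in 2.26% of all 32851 windows. The cell cycle homology region (CHR, TTTGAA), a site typical of late cell cycle genes, was in 13.9% of member windows, 70% of mitosis windows and 17.9% of all. The NF-Y box (CCAAT) was in 58.3% of member windows, 45% of those of the other replication genes, 85% of mitosis windows and 37.4% of all. The Sp1 box (GGGCGG) was in 69.4%, 75%, 85% and 35.7%, so both boxes were more frequent in the mitosis list than in the members. The median GC content was 57.8% in member windows and 52.7% in all. Such a match is a run of letters, not a measured binding site, and a window without one lacks only these letters.

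**Figure D2:**
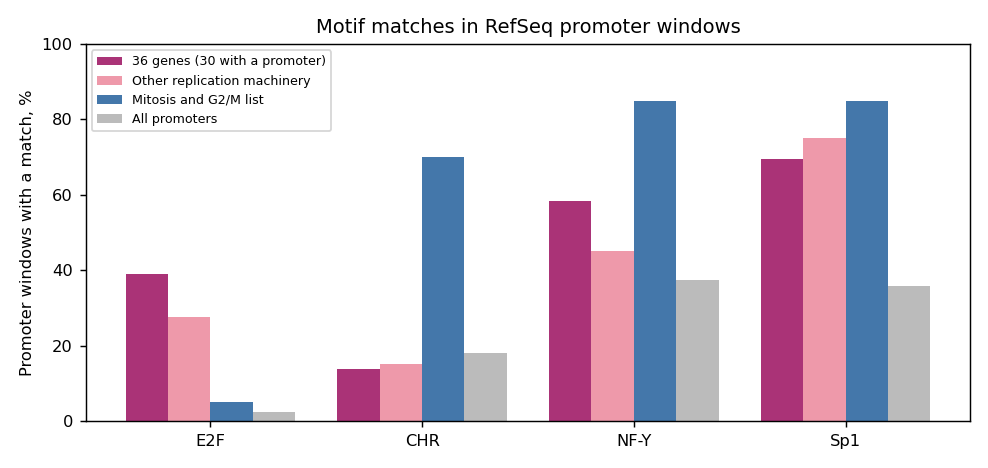
Percent of RefSeq promoter windows (250 bases before to 50 after a start) that hold at least 1 match to each of 4 motifs, for the members, the other replication machinery, the mitosis list and all promoters. E2F matches stand at 38.9% in the members and 2.26% over all promoters, and CHR matches at 70% in the mitosis list.

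These 5 windows are shown because they belong to genes to which the results return: a pair of helicase subunits with several matches, the licensing factor Cdt1, the polymerase gene Pold1, and Mcm10, whose log2 fold change was positive and whose window held 0 matches. Each runs 5′ to 3′ on the strand of its gene, and the capitals mark the E2F matches. The Mcm10 window ends in TTTGGCG, which is TTTGGCGC without its last letter, so its 0 matches depend on where the window was cut.
Mcm5, chr8:75109259-75109558, plus strand: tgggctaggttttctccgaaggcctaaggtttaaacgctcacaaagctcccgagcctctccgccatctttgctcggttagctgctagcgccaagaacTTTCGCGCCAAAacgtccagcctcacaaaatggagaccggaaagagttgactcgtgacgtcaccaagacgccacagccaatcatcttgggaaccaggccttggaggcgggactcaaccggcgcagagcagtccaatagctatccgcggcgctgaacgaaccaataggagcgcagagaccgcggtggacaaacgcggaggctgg
Mcm6, chr1:128359656-128359955, minus strand: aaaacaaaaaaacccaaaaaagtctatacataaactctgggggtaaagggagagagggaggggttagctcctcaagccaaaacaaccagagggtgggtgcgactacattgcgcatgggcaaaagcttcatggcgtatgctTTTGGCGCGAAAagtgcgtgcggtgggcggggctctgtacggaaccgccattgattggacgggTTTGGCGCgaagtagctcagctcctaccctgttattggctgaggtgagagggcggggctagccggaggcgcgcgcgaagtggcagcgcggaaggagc
Cdt1, chr8:122567765-122568064, plus strand: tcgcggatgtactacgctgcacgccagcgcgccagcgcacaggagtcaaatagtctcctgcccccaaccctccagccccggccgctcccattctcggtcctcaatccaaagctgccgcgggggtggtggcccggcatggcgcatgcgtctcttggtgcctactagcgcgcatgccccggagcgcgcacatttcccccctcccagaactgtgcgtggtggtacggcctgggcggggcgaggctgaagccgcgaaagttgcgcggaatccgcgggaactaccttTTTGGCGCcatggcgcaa
Pold1, chr7:44548766-44549065, minus strand: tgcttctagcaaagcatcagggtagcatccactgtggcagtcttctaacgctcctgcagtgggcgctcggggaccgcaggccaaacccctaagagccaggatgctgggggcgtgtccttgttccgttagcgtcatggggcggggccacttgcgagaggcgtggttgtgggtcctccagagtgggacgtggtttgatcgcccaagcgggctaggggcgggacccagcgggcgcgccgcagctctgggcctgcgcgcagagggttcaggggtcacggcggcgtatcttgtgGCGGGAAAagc
Mcm10, chr2:5012742-5013041, minus strand: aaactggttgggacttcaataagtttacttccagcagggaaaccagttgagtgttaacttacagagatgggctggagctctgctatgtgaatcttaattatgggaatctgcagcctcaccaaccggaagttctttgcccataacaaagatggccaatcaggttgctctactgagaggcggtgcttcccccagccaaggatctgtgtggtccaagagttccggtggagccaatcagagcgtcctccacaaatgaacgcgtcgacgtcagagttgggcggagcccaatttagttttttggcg
In Mcm5 a match begins 153 bases before the start site and another, on the other strand, 149 bases before it, so that both overlap. Mcm6 has such an overlapping pair at 110 and 106 bases before the start and a single match at 47 bases before it. The matches of Cdt1 and Pold1 lie past the start, at bases 33 and 40 counted from it. The 14 genes with a match all had negative log2 fold changes, and all 14 were highest in Control 3 and lowest in TSDP 2. Among the 16 genes whose windows held no match, 10 had negative fold changes and 8 showed that order of libraries. All 6 members without a window had negative fold changes, and 4 showed that order, which 15% of all genes tested showed. This split by motif was looked at after the values were known and is a description. Among the 16 genes without a match, E2f1 and Chek1 had windows wholly inside their gene models, so the bases before those models were not read. The windows of Mcm10 and Chek1 end in all but the last letter of a match.

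The 6 subunits of the MCM2-7 helicase, which unwinds DNA ahead of the fork, were all highest in Control 3 and lowest in TSDP 2, and 0 of 6 passed the test in either direction. Mcm6 was counted at 268 CPM in Control 3, 171 in Control 4 and 146 in Control 5, against 185 CPM in TSDP 1, 130.5 in TSDP 2 and 183 in TSDP 5. Its log2 fold change was -0.23 ± 0.27 (SE; adjusted p by edgeR = 0.717). Mcm2 was counted at 76.0 CPM in Control 3, 49.9 in Control 4 and 47.8 in Control 5, against 61.5 CPM in TSDP 1, 40.1 in TSDP 2 and 56.2 in TSDP 5. In both genes TSDP 1 and TSDP 5 lay above Control 4 and Control 5, so that the groups overlapped. Mcm5 stood at 90.7, 60.0 and 47.2 CPM (Control) against 73.2, 46.6 and 65.1 CPM (TSDP), in the same order, with a log2 fold change of -0.10 ± 0.28 (SE; adjusted p by edgeR = 0.894). Mcm7 stood at 87.5, 61.1 and 66.8 CPM (Control) against 77.5, 50.2 and 65.9 CPM (TSDP), and its log2 fold change was -0.15 ± 0.21 (SE; adjusted p = 0.761). Some 12.6% of the exon bases of Mcm7 are shared with other genes, among them Mir25 and Mir93 inside it. The log2 fold changes of the 6 subunits spanned only -0.23 to -0.09, and the 95% interval of Mcm2, whose log2 fold change was -0.14 ± 0.24 (SE; adjusted p = 0.817), ran from -0.72 to 0.44 and so held changes of either sign. Per kilobase of annotated exon the subunits differed although the complex holds 1 of each: the means in Control were 41.8 CPM per kb for Mcm6, 29.4 for Mcm4, 20.9 for Mcm3, 16.5 for Mcm5, 16.2 for Mcm7 and 8.32 for Mcm2. The ratio of the highest to the lowest subunit on this scale was 4.55 to 5.26 over the Control libraries and 4.49 to 4.85 over the TSDP libraries. Exon lengths are unions over all annotated transcripts, which lowers genes with rarely used long exons.

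The licensing genes, which load the helicase, had the lowest median of the member groups, -0.30, and all 4 had negative log2 fold changes, but 0 of 4 passed the test. Cdt1, which carries the helicase to the origin, was counted at 59.6 CPM in Control 3, 38.2 in Control 4 and 39.2 in Control 5, against 38.8 CPM in TSDP 1, 21.5 in TSDP 2 and 42.3 in TSDP 5. Control 3 and TSDP 2 were again the extremes, and the middle 4 libraries lay within 38.2 to 42.3 CPM. Its log2 fold change, -0.42 ± 0.30 (SE; adjusted p by edgeR = 0.559), was the most negative of the 36. Orc1, the largest subunit of the origin recognition complex, was scarce, at 8.93, 7.15 and 5.77 CPM (Control) against 6.44, 4.999 and 6.17 CPM (TSDP), with a log2 fold change of -0.31 ± 0.22 (SE; adjusted p = 0.562). The groups overlapped for Orc1 as well. Orc6 and Cdc6 had log2 fold changes of -0.26 and -0.28.

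Genes that switch the loaded helicase on did not share 1 sign, and 0 of 4 passed the test. Mcm10, a scaffold that helps to start the helicase and binds polymerase alpha, was counted at 39.6 CPM in Control 3, 24.4 in Control 4 and 26.0 in Control 5, against 42.3 CPM in TSDP 1, 32.1 in TSDP 2 and 35.2 in TSDP 5. TSDP 1 was highest, Control 3 next and Control 4 lowest, and the groups overlapped through Control 3 alone. The log2 fold change of 0.29 ± 0.22 (SE; adjusted p by edgeR = 0.581) was the largest of the 36. Without Control 3 it was 0.52, with the groups apart (adjusted p = 0.543), as for 27.6% of all genes, in either direction, with that library left out. Gins2, a subunit of the GINS complex, stood at 19.3, 13.6 and 12.9 CPM (Control) against 15.7, 10.2 and 15.4 CPM (TSDP) with a log2 fold change of -0.15 ± 0.24 (SE; adjusted p = 0.803). Most of its exon bases, 67.3%, are also exons of Gse1 on the other strand, so its level is uncertain where reads were counted without strand. Cdc45 and Gins1 had log2 fold changes of -0.14 and -0.06.

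Among the clamp, the polymerases and the clamp loader, 6 of 7 log2 fold changes were negative and 0 passed the test. Pold1, the catalytic subunit of polymerase delta, was counted at 34.7 CPM in Control 3, 28.4 in Control 4 and 28.0 in Control 5, against 25.8 CPM in TSDP 1, 17.5 in TSDP 2 and 27.4 in TSDP 5. Pold1 was the single member whose groups did not overlap: the lowest Control library lay just above the highest TSDP library. No overlap with TSDP lower was found for 8.76% of all genes tested, and with TSDP higher for 13% of all genes and 0 members. Its log2 fold change was -0.36 ± 0.20 (SE; adjusted p by edgeR = 0.459), with a 95% interval of -0.84 to 0.11. Pole, the catalytic subunit of polymerase epsilon, stood at 60.3, 34.6 and 33.3 CPM (Control) against 41.2, 24.9 and 35.4 CPM (TSDP), a log2 fold change of -0.34 ± 0.29 (SE; adjusted p = 0.629). For Pole the groups overlapped. Pcna, which encodes the sliding clamp, was counted at 255 CPM in Control 3, 149 in Control 4 and 168 in Control 5, against 182 CPM in TSDP 1, 120.1 in TSDP 2 and 189 in TSDP 5, and its log2 fold change was -0.22 ± 0.27 (SE; adjusted p = 0.736). Control 4 and Control 5 lay below TSDP 1 and TSDP 5. A processed copy, Pcna-ps2, held 3385 counts over the 6 libraries, 9.04% of the 37458 counts of Pcna, and reads of the 2 can be mistaken for each other. Rfc3, Rfc4 and Rfc5, subunits of the loader that opens the clamp, had log2 fold changes of -0.13, -0.12 and 0.04. Pola1, the catalytic subunit of polymerase alpha, had -0.14.

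Of the pair that finishes Okazaki fragments, Lig1, the DNA ligase that seals them, was counted at 96.4 CPM in Control 3, 64.9 in Control 4 and 55.9 in Control 5, against 66.3 CPM in TSDP 1, 43.9 in TSDP 2 and 69.1 in TSDP 5. The log2 fold change was -0.28 ± 0.26 (SE; adjusted p by edgeR = 0.655), with Control 3 highest and TSDP 2 lowest. Fen1, the nuclease that trims the flaps, was the least counted member, with 321 counts in all, at 1.98, 1.66 and 0.870 CPM (Control) against 2.19, 0.982 and 1.51 CPM (TSDP). Its log2 fold change was 0.06 ± 0.43 (SE; adjusted p = 0.960), with a 95% interval of -0.99 to 1.11. In the GENCODE M21 gene models 84.2% of the exon bases of Fen1 (chromosome 19, 10199132 to 10204169, GRCm38) are also exons of Gm10143 and Tmem258 on the other strand. The strand setting of the counting is not given in the sources used here, and the low level of Fen1 is uncertain for that reason.

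The nucleotide supply genes make deoxynucleotides for the fork, and 0 of 4 passed the test. Rrm2, the small subunit of ribonucleotide reductase that is made in S phase, was counted at 327 CPM in Control 3, 207 in Control 4 and 139.7 in Control 5, against 168 CPM in TSDP 1, 148 in TSDP 2 and 219 in TSDP 5. Control 3 was highest, Control 5 lowest, and the range within each group exceeded the distance between the means. The log2 fold change was -0.33 ± 0.33 (SE; adjusted p by edgeR = 0.669). Tyms, thymidylate synthase, stood at 25.2, 17.97 and 15.1 CPM (Control) against 22.6, 19.1 and 20.9 CPM (TSDP), a log2 fold change of 0.10 ± 0.21 (SE; adjusted p = 0.845). Tk1, thymidine kinase, stood at 62.2, 52.9 and 35.99 CPM (Control) against 50.5, 40.9 and 52.6 CPM (TSDP), a log2 fold change of -0.07 ± 0.22 (SE; adjusted p = 0.908). In all 3 genes Control 5 rather than TSDP 2 was the lowest library. Rrm2 to Rrm1 counts stood at a ratio of 1.61, 1.72 and 1.14 (Control) against 1.07, 1.599 and 1.40 (TSDP), with overlap between the groups.

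E2F factors and cyclins had log2 fold changes of both signs, 4 of 6 negative, and 0 past the test. E2f1, an activator of the S phase genes and itself a target of E2F, was counted at 34.9 CPM in Control 3, 23.2 in Control 4 and 25.01 in Control 5, against 24.5 CPM in TSDP 1, 17.6 in TSDP 2 and 26.0 in TSDP 5. TSDP 5 lay above Control 4 and Control 5, so the groups overlapped at a log2 fold change of -0.29 ± 0.22 (SE; adjusted p by edgeR = 0.581). Both cyclin E genes, which activate Cdk2 at the start of S phase, differed in sign. Ccne1 stood at 11.6, 7.42 and 8.15 CPM (Control) against 12.4, 7.77 and 9.79 CPM (TSDP), a log2 fold change of 0.14 ± 0.26 (SE; adjusted p = 0.828). Ccne2 stood at 45.2, 23.7 and 27.4 CPM (Control) against 29.4, 18.6 and 27.5 CPM (TSDP), a log2 fold change of -0.35 ± 0.29 (SE; adjusted p = 0.612). The single-gene groups overlapped, but the ratio of Ccne1 to Ccne2 counts was 0.257, 0.313 and 0.297 (Control) against 0.421, 0.419 and 0.356 (TSDP), without overlap. Its means were 0.289 ± 0.0290 and 0.399 ± 0.0368 (SD, n = 3 each). Of all single genes tested, 21.8% did not overlap in 1 direction or the other, and no such share was drawn up for ratios. The exons of Ccne2 share 17.4% of their bases with Ints8 on the other strand. E2f8, a repressor that ends the E2F wave, E2f2 and Ccna2, cyclin A, had log2 fold changes of 0.05, -0.02 and -0.05.

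The checkpoint and chromatin genes all had negative log2 fold changes, and 0 of 3 passed the test. Clspn, the adaptor through which stalled forks activate Chk1, was counted at 53.8 CPM in Control 3, 30.3 in Control 4 and 26.8 in Control 5, against 35.1 CPM in TSDP 1, 20.9 in TSDP 2 and 30.2 in TSDP 5. Chek1, which encodes that kinase, stood at 26.5, 14.0 and 12.6 CPM (Control) against 16.9, 10.6 and 16.3 CPM (TSDP). For both, Control 3 lay well above the other 5 libraries and TSDP 2 was lowest. The highest of the other 4 was TSDP 1. The log2 fold changes were -0.36 ± 0.32 and -0.28 ± 0.34 (SE), with edgeR adjusted p of 0.627 and 0.729. Uhrf1, which brings the DNA methyltransferase to new DNA, had a log2 fold change of -0.26.

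**Figure D3:**
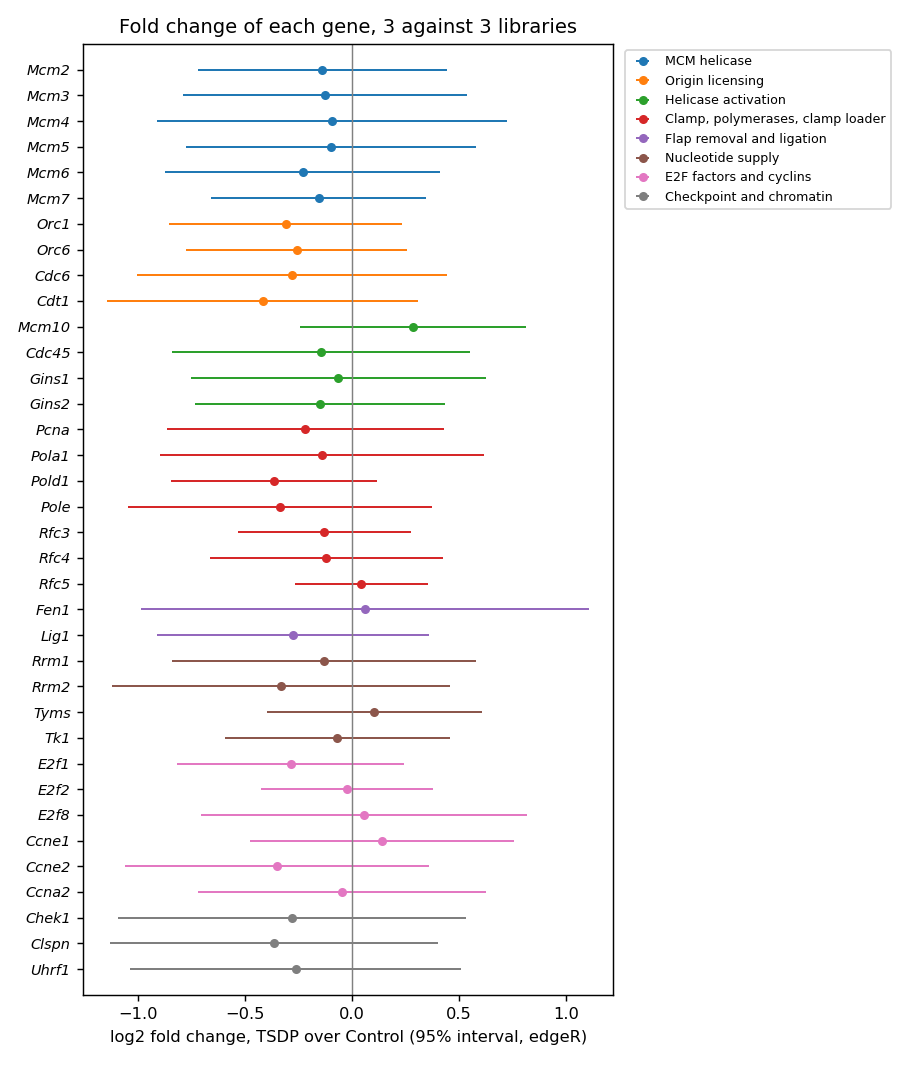
Log2 fold change of each of the 36 genes, TSDP over Control, with its 95% interval from the edgeR fit of 3 against 3 libraries, coloured by role. All 36 intervals cross 0, and the values run from -0.42 (Cdt1) to 0.29 (Mcm10).

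The sign of the median log2 fold change rested on Control 3 and TSDP 2. Without Control 3 the median log2 fold change of the 36 genes was 0.07 with 24 positive, and without TSDP 2 it was 0.01 with 19 positive. The share of counts in the 36 genes differed by -0.0301 percentage points (TSDP minus Control) with all libraries, by 0.00535 without Control 3 and by -0.0048 without TSDP 2, so its sign turned without Control 3 and not without TSDP 2. Leaving out Control 4, Control 5, TSDP 1 or TSDP 5 gave medians of -0.26, -0.29, -0.27 and -0.24, with 5, 2, 3 and 5 genes positive. Without both Control 3 and TSDP 2, a choice made after the values were seen, 34 of 36 genes were positive with a median of 0.21. That setting removes the highest Control and the lowest TSDP library and so raises the difference by construction. With the hepatocyte score, the mean log2 CPM of the hepatocyte list, as a covariate, 34 of 36 genes were positive with a median of 0.30, 2 genes (Mcm10 and Pola1) had an unadjusted p under 0.05 and the smallest adjusted p was 0.696. That score itself did not overlap between the groups (at most 8.54 in Control, at least 9.03 in TSDP), so in this fit the covariate and the treatment can be told apart only in part. In each of these settings 0 members were called, and the median over all genes tested lay between -0.03 and 0.000613.

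**Figure D4:**
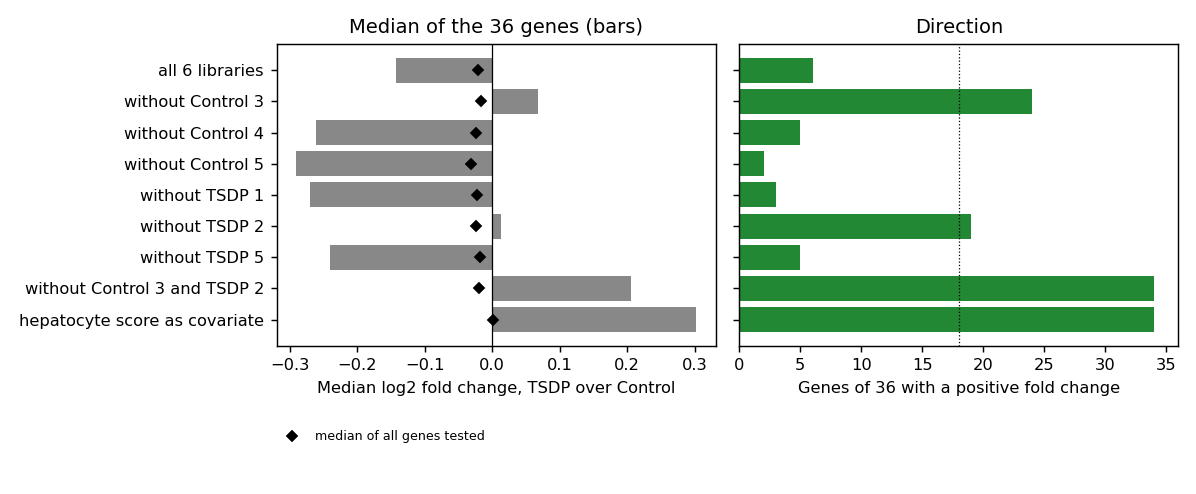
Left, median log2 fold change of the 36 genes (bars) and of all genes tested (diamonds) with all 6 libraries, without single libraries, without Control 3 and TSDP 2, and with the hepatocyte score as a covariate. Right, the number of the 36 genes with a positive log2 fold change, with a dotted line at the midpoint; it goes from 6 with all libraries to 34 in the last 2 settings.

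Because the members shared most of their variation, their levels were also described relative to each other, as log2 CPM minus the mean of the 36 genes in the same library. This lowered the median within-group SD of the members from 0.389 to 0.137, as subtracting their own mean must in part, while for all genes tested the same subtraction raised it from 0.270 to 0.434. On this scale 4 members lay lower in all TSDP than in all Control libraries, namely Cdt1, Cdc6, Orc6 and E2f1, beside 1.85% of all genes tested. Another 2 lay higher, Mcm10 and Tyms, beside 6.86% of all genes. Both percentages are no equal measure for the members, because the same subtraction narrowed the spread of the members and widened that of all genes. Of the 4 members that lay lower, 3 are among the 4 licensing genes. Cdt1 stood at 0.28, 0.23 and 0.40 (Control) against 0.02, -0.23 and 0.21 (TSDP). Cdc6 stood at -0.88, -0.98 and -0.90 (Control) against -0.98, -1.22 and -0.996 (TSDP), and its groups were separated by a margin far smaller than their spread. The same holds for Orc6 (lowest Control -0.2175, highest TSDP -0.2208) and E2f1 (lowest Control -0.4877, highest TSDP -0.4903). For Cdt1 the lowest Control value was 0.2338 and the highest TSDP value 0.2103. Mcm10 stood at -0.31, -0.41 and -0.20 (Control) against 0.15, 0.34 and -0.05 (TSDP), the largest difference of means of the 36, at -0.30 ± 0.10 and 0.14 ± 0.20 (SD, n = 3 each). Set against the 6 subunits of the helicase, the ratio of Mcm10 to their summed CPM was 0.0506, 0.0504 and 0.0568 (Control) against 0.0699, 0.0829 and 0.0635 (TSDP), without overlap. When the mean of Mcm2 to Mcm7 served as the reference, the groups of Cdt1, Cdc6 and Mcm10 again did not overlap. Those of Orc6, E2f1 and Tyms did, and Pole and Clspn were added as lower. Mcm2 to Mcm7 are among the 36 genes, so both scales rest on shared values. No share over all genes was drawn up for this reference or for the Mcm10 ratio. This scale was chosen after the values were seen, and no test was made on it.

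**Figure D5:**
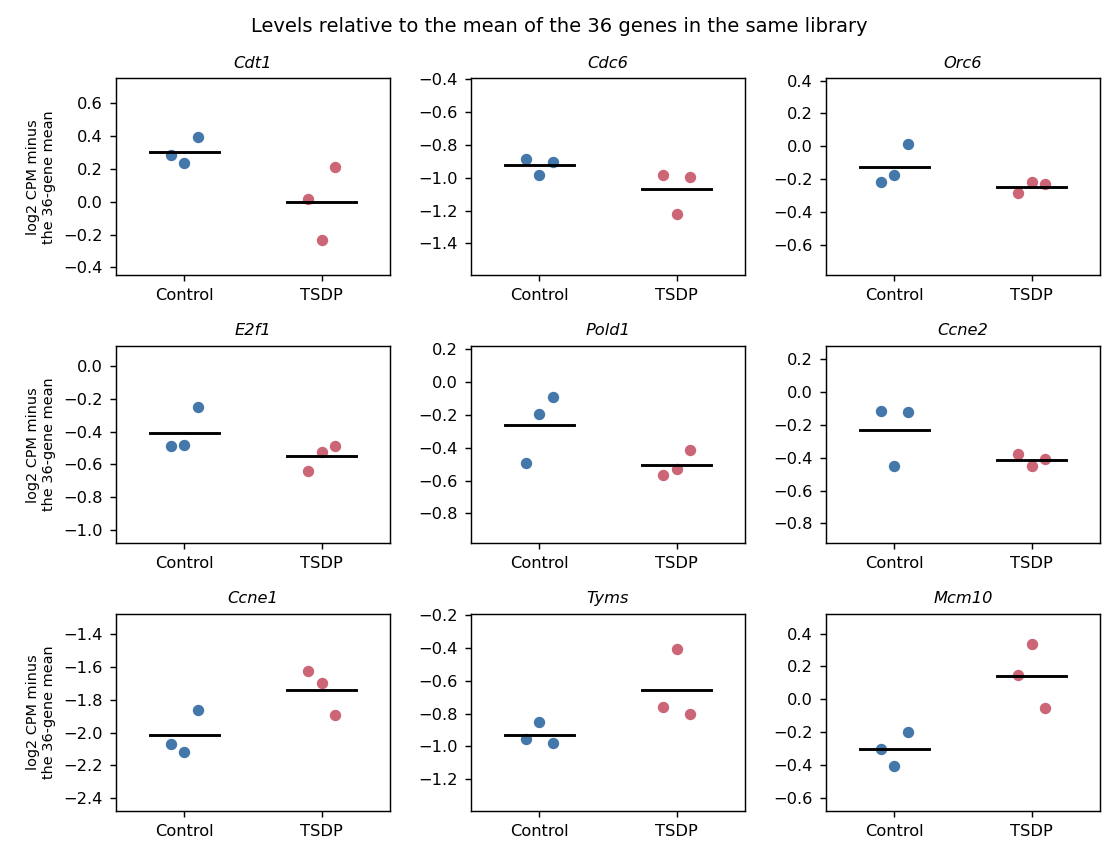
Log2 CPM minus the mean of the 36 genes in the same library for 9 of them, 1 point per library with the group mean as a line (3 Control, 3 TSDP; each panel spans 1.2 log2 units). Cdt1, Cdc6, Orc6 and E2f1 lie lower in every TSDP library, by narrow margins, and Tyms and Mcm10 higher. The groups of Pold1, Ccne2 and Ccne1 overlap.

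In 6 further lists of replication and G1/S genes 0 genes passed the test in either direction. Of 42 further genes of the replication machinery 32 had negative log2 fold changes, with a median of -0.12, and Control 3 was highest for 33. The smallest unadjusted p was that of Mcm9, a helicase of repair, at 24.4, 18.1 and 18.5 CPM (Control) against 15.8, 16.0 and 14.2 CPM (TSDP), a log2 fold change of -0.41 ± 0.16 (SE; adjusted p by edgeR = 0.368). Its groups did not overlap, and 19.2% of its exon bases are shared with Asf1a on the other strand. Rnaseh2c, named after its values were seen, was the single gene of this list that lay higher without overlap, with a log2 fold change of 0.41 ± 0.19 (SE; adjusted p = 0.410). Without overlap, 1 of the 42 genes lay lower and 1 higher, beside 8.76% and 13% of all genes tested. Of 25 G1/S regulators 22 were negative, with a median of -0.16. Cdk6, a kinase partner of the D cyclins, stood at 146, 136 and 117 CPM (Control) against 103, 114 and 110.4 CPM (TSDP), without overlap (log2 fold change -0.28 ± 0.12, SE; adjusted p = 0.3795). Named after their values were seen, Fbxw7, a ubiquitin ligase subunit that marks cyclin E for destruction, also lay lower without overlap, and Ccnd3, cyclin D3, lay higher, with log2 fold changes of -0.30 ± 0.15 and 0.34 ± 0.15 (SE; adjusted p = 0.435 and 0.405). Of the 25 regulators 2 lay lower and 1 higher without overlap, beside the same 8.76% and 13% of all genes. Ccnd1, cyclin D1, stood at 1129, 705 and 664 CPM (Control) against 663, 482 and 839 CPM (TSDP) and Myc at 140.5, 105 and 173 CPM (Control) against 113, 79.4 and 125 CPM (TSDP), with adjusted p of 0.636 and 0.491. Among 7 CDK inhibitors the median was -0.05. Cdkn1a, which encodes p21, stood at 72.7, 97.3 and 119 CPM (Control) against 137, 124 and 118 CPM (TSDP) (log2 fold change 0.39 ± 0.19, SE; adjusted p = 0.426), lowest in Control 3. Cdkn1c was counted at 3.21 CPM in TSDP 2 and at most 0.368 CPM elsewhere.

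The 18 S phase checkpoint genes had 17 negative log2 fold changes (52.7% of all genes) with a median of -0.24. The groups did not overlap for 3 of them, all lower in TSDP, beside 8.76% of all genes. Besides Wee1 these were Brca2 and Msh6, named after their values were seen, with log2 fold changes of -0.64 ± 0.26 and -0.46 ± 0.16 (SE; adjusted p by edgeR = 0.373 and 0.349). Wee1, the kinase that holds back Cdk1, stood at 57.4 CPM in Control 3, 50.7 in Control 4 and 36.1 in Control 5, against 26.6 CPM in TSDP 1, 22.1 in TSDP 2 and 32.1 in TSDP 5. All 3 Control libraries lay above all 3 TSDP libraries, and the log2 fold change was -0.83 ± 0.22 (SE; adjusted p by edgeR = 0.326; DESeq2 adjusted p = 0.0352). The genes of replicating chromatin had a median of -0.19, with Hells, a chromatin remodeller, at 90.3, 42.4 and 45.3 CPM (Control) against 48.7, 36.9 and 45.4 CPM (TSDP) and 0 of 10 past the test. The other nucleotide supply genes had a median of 0.05, and 4 of 18 lay higher in TSDP without overlap (13% of all genes), namely Shmt1 and, named after their values were seen, Mthfd1, Nme1 and Dctd. Shmt1, a serine hydroxymethyltransferase that feeds thymidylate synthesis and is made in liver, stood at 27.2 CPM in Control 3, 26.7 in Control 4 and 23.6 in Control 5, against 50.3 CPM in TSDP 1, 71.7 in TSDP 2 and 41.3 in TSDP 5. The TSDP libraries were all higher, most of all TSDP 2, and the log2 fold change was 1.07 ± 0.21 (SE; adjusted p by edgeR = 0.326; DESeq2 adjusted p = 0.00134). In the fit with the hepatocyte covariate the log2 fold change of Shmt1 was 1.015 and that of Wee1 -0.60, with adjusted p of 0.836 and 0.917.

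Mitosis and G2/M genes, which act after S phase, gave a median log2 fold change of -0.02, with 15 of 25 negative and 0 called. Control 3 was the highest library for 22 of 25, and TSDP 2 the lowest for 14 of 25. Mki67, the antigen by which pathologists count cycling cells, was counted at 803 CPM in Control 3, 532 in Control 4 and 393 in Control 5, against 489.7 CPM in TSDP 1, 319 in TSDP 2 and 533 in TSDP 5, and Top2a, topoisomerase II alpha, at 625, 421 and 311 CPM (Control) against 495, 304 and 489 CPM (TSDP). Control 3 was highest in both, as for the replication genes, and Control 5 lay below TSDP 1 and TSDP 5. The log2 fold changes were -0.36 ± 0.32 and -0.08 ± 0.31 (SE; adjusted p by edgeR = 0.629 and 0.928). Cenpf, a centromere protein, had the smallest p of the list, with a log2 fold change of -0.44 ± 0.34 (SE; adjusted p = 0.588). The counts of the 36 replication and G1/S genes relative to those of the mitosis list were 0.790, 0.691 and 0.872 (Control) against 0.758, 0.793 and 0.728 (TSDP). The TSDP values lay within the range of the Control values, so a shift between the phases was not detectable with 3 libraries a group.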

How the data were processed

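RNA of 6 HCA-1 tumour samples was sequenced. Reads were trimmed, aligned and counted with tools that per the submitters' processing notes include Trimmomatic 0.38, HISAT2 2.1.0 and featureCounts 2.0.0, besides CASAVA, FastQC and MultiQC. No source used here names the build, annotation or strand setting. All 55536 gene IDs equal those of GENCODE M21 (GRCm38), which gave exon lengths and overlaps. The authors deposited whole read counts, not normalized, and a normalized signal (the count over 1 constant per library), which supplied only the symbols. The test was that of edgeR 4.0.16 in R 4.3.3, with TMM, filterByExpr with a minimum count of 10, default glmQLFit, glmQLFTest on the group, and Benjamini-Hochberg adjustment at 0.05 over the 17423 genes kept. Each standard error is the log2 fold change, unsigned, over the root of F, and log2 CPM used a prior count of 2. Alternatives were DESeq2 1.42.0, limma 3.58.1 (voom), other scalings and filters, a hepatocyte covariate and leaving out each library. The fit was also run on simulated counts, drawn separately for each gene. These lack the variation that the members share, so that run does not bear on the members. No pair of libraries was a duplicate (chi-square per gene at least 47.7). Only titles tell replicates apart, so the p-values describe spread between these samples, which may be technical. No batch is labelled. Members and lists were chosen with earlier results of these data known. By rule, values per library are given for the 2 members with the smallest p in each role, for Pcna, Mcm2, Mcm5, E2f1, Ccne1, Ccne2, Rrm2, Tk1 and Cdt1, for the gene with the smallest p of each other list and for Ccnd1, Cdkn1a, Myc, Mki67 and Top2a. The relative levels were added later.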

Additional observations from a re-analysis of the deposited data

How the results depend on the processing

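No paired analysis was possible because the groups share only replicate number 5. With all libraries edgeR called 0 genes in either direction and gave 2326 an unadjusted p under 0.05. By DESeq2 547 genes were higher and 73 were lower, among them Shmt1 and Wee1 of the 33 genes named. With no filter on low counts edgeR called 1 gene higher, and without both Control 3 and TSDP 2 it called 2. In none of the settings run was a member called. Other scalings gave member medians of -0.15 to -0.20. Upper-quartile factors moved the median of all genes to -0.09 and turned Fen1 to -0.0030. With the hepatocyte covariate the member median was 0.30 and 21 of 33 named genes changed sign, to log2 fold changes of Mcm6 0.29, Mcm7 0.21, Cdt1 0.10, Gins2 0.26, Pole 0.28, Lig1 0.20, Rrm2 0.24, E2f1 0.15, Ccne2 0.32, Clspn 0.28, Chek1 0.44, Pcna 0.35, Mcm2 0.33, Mcm5 0.40, Tk1 0.19, Cdkn1c -0.39, Hells 0.34, Cenpf 0.050, Ccnd1 0.21, Mki67 0.16 and Top2a 0.43. Without both Control 3 and TSDP 2, a setting chosen after seeing the data, 20 changed sign, to Mcm6 0.19, Mcm7 0.14, Cdt1 0.045, Gins2 0.21, Pole 0.15, Lig1 0.14, Rrm2 0.14, E2f1 0.045, Ccne2 0.13, Clspn 0.17, Chek1 0.29, Pcna 0.21, Mcm2 0.25, Mcm5 0.34, Tk1 0.19, Hells 0.079, Cenpf 0.061, Ccnd1 0.11, Mki67 0.12 and Top2a 0.40. There 24 members lay higher in TSDP without overlap, where 42.5% of all genes did not overlap in 1 direction or the other, and the share of counts differed by 0.0307 percentage points upwards. Leaving out single libraries gave 0 to 2 members without overlap as higher (2 without Control 3, Mcm10 and Tyms) and 1 to 3 as lower (3 without Control 5, Pold1, Orc1 and Tk1), where 26% to 41.9% of all genes did not overlap in 1 direction or the other (27.6% without Control 3, 30.2% without Control 5), and a difference in the share of counts of -0.051 to 0.00535 percentage points (the latter without Control 3). Over these single omissions the log2 fold changes that changed sign ran as follows: Mcm6 -0.41 to 0.051, Gins2 -0.27 to 0.039, Rrm2 -0.59 to 0.027, Chek1 -0.48 to 0.11, Pcna -0.37 to 0.032, Mcm2 -0.27 to 0.090, Mcm5 -0.30 to 0.18, Tk1 -0.27 to 0.097, Top2a -0.30 to 0.21, Fen1 -0.27 to 0.30, Tyms -0.063 to 0.32 and Ccne1 -0.045 to 0.34. Relative to Mcm2 to Mcm7, 1 member in place of 2 lay higher without overlap, and no share over all genes was drawn up for that reference. The cause of these changes was not tested, beyond the removal of the extreme libraries. The narrowest 95% interval of a member, that of Rfc5, ran from -0.27 to 0.35, so smaller changes were not detectable with 3 libraries a group.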
